A study of Mus musculus with 8 samples.

Results

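The cortical projection neuron transcription factors are a set of 9 genes, Tbr1, Fezf2, Bcl11b, Sox5, Foxp2, Foxp1, Cux1, Cux2 and Pou3f2, listed by name and found in the count table by gene name. Each of the 9 names matched 1 of the 34299 genes in the table. Projection neurons are the excitatory neurons of the cerebral cortex, and they are born in a fixed order, so that deep-layer cells arise before upper-layer cells. DNA-binding proteins that restrain one another sort these cells into classes by axon target: corticothalamic cells of the deepest layer rely on Tbr1, subcerebral cells of the layer above on Fezf2 and Bcl11b, and upper-layer cells that project within the cortex express the Cux factors and Pou3f2. Several of these genes are also used outside the cortex, in the striatum, thalamus, cerebellum or hindbrain.

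Mouse brain was sequenced as polyadenylated RNA in 3 groups. The wild-type (WT) group held 3 brains of fetuses at gestation day 15, the knockout (KO) group held 3 day 15 fetal brains that lack Cav1, the gene for the caveolar coat protein caveolin 1, and the aged group held 2 Cav1 KO brains at week 70. The labels call the day 15 replicates biological, say nothing of litter, batch, strain or allele, and do not describe how the week 70 replicates relate. WT brain at week 70 was not analysed here, so the age comparison lies within the KO.

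Cav1 held 367, 218 and 329 counts in the WT libraries, 0, 3 and 1 in the day 15 KO libraries and 1 and 5 at week 70. Total counts were 19414747 to 20833397 in WT, 14110031 to 15245283 in KO at day 15 and 18924304 to 20203233 at week 70, so that depth separated the day 15 genotypes. The labels name no batch, so any batch difference between these genotypes could not be told apart from genotype. In WT replicate 1 a list of 15 genes of connective tissue, vessels, muscle, skin and blood summed to 4950 CPM (counts scaled to library size), against 739 and 922 CPM in the other WT libraries and 759 to 980 CPM in the day 15 KO libraries. All 6 fetal libraries held Xist, the X-inactivation transcript of female cells, with 54531 to 93272 counts, and at most 4 counts over 4 Y-linked genes. The week 70 libraries differed in both respects: replicate 1 held 7969 Xist counts and 0 Y-linked counts, and replicate 2 held 4 and 2219. A list of 16 genes of striatal projection neurons summed to 1662 CPM in week 70 replicate 1 and 460 CPM in replicate 2, so this sum and the sex transcripts differed together between the 2 brains and cannot be told apart.

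The stretches upstream of 3 of the genes are shown because Tbr1 and Bcl11b had the largest day 15 falls in the set and Fezf2, which acts upstream of Bcl11b in subcerebral neurons, did not pass the test. On GRCm38, GENCODE places Tbr1 (ENSMUSG00000035033) at chr2:61802930-61814114 on the plus strand, Bcl11b (ENSMUSG00000048251) at chr12:107910403-108003602 and Fezf2 (ENSMUSG00000021743) at chr14:12342094-12348189, both on the minus strand. The other factors lie at chr6:143828425-144781977 (Sox5), chr6:14901349-15441977 (Foxp2), chr6:98925338-99522721 (Foxp1), chr5:136248135-136567490 (Cux1), chr5:121856366-122050102 (Cux2) and chr4:22482780-22488366 (Pou3f2, a gene with a single exon). Each stretch is the 250 bases before a RefSeq gene start on GRCm38.p6, written 5′ to 3′ on the gene's strand. They lie at chr2:61804203-61804452 on the plus strand for Tbr1, chr12:108003415-108003664 on the minus strand for Bcl11b and chr14:12345866-12346115 on the minus strand for Fezf2. The GENCODE spans start upstream of these RefSeq starts, so that the Tbr1 and Fezf2 windows lie within the annotated genes and the Bcl11b window overlaps the start of the gene. Capitals mark matches, on either strand, to 1 of 6 short strings: GGTGTGA (T-box), CAGATG (E-box), GTAAACA (forkhead), AACAAT (SOX), ATGCAAAT (POU octamer) and GGGCGG (GC box).
Tbr1: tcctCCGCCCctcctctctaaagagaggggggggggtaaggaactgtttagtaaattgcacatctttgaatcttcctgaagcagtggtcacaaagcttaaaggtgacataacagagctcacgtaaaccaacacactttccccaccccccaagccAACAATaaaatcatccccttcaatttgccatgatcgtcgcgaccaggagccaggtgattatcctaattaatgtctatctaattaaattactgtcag
Bcl11b: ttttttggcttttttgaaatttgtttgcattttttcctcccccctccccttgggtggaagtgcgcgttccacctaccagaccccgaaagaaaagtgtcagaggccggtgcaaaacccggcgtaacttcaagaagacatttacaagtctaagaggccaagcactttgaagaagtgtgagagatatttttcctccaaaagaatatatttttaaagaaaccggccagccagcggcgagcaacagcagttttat
Fezf2: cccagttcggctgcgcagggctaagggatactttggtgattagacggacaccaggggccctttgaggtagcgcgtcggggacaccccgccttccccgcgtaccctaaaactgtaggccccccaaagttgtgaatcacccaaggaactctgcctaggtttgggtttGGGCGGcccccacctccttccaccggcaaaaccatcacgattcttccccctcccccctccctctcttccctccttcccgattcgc
The Tbr1 stretch held 1 AACAAT, a string present in 9.42% of the 32851 promoter windows of this length, and 1 GGGCGG on the reverse strand, present in 32.74%. The Fezf2 stretch held 1 GGGCGG, and the Bcl11b stretch held none of the 6 strings. The Tbr1 and Bcl11b windows had a GC content of 45.2% and 44.8%, below the median of 52.4% over all windows, and the Fezf2 window had 61.2%. The Tbr1, Bcl11b and Fezf2 windows held 5, 9 and 14 CG pairs. A match is only a description of the letters. Windows were found for 8 of the 9 genes, all except Foxp2.

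Per kilobase of exon, the WT day 15 brain had its highest levels in the set in Bcl11b, at 41.8 ± 2.58 CPM per kb, and Tbr1, at 37.4 ± 2.58 CPM per kb (SD, n = 3). They were followed by Pou3f2 at 28.0, Fezf2 at 23.1, Cux2 at 13.0, Sox5 at 12.0, Cux1 at 10.2, Foxp1 at 7.89 and Foxp2 at 6.99 CPM per kb. Neighbours in this order did not overlap between libraries except Cux2 with Sox5 and Foxp1 with Foxp2. Exon length here covers all annotated exons of a gene together, at 5486 bases for Tbr1, 8111 for Bcl11b and 16346 for Foxp2. Their longest transcripts have 3977, 8111 and 6760 bases, so the order between genes depends on the length used. In the day 15 KO brain the order of levels began with Fezf2 at 20.6 ± 0.822 and Pou3f2 at 20.2 ± 1.23 CPM per kb, whose libraries overlapped, and Bcl11b at 11.1 ± 0.25 and Tbr1 at 10.5 ± 0.436 CPM per kb came next, also overlapping (SD, n = 3). At week 70 Tbr1 headed the order alone at 32.1 ± 0.444 CPM per kb, with Fezf2 at 15.6 ± 2.45 and Bcl11b at 15.1 ± 1.16 CPM per kb overlapping behind it (SD, n = 2). Foxp2 ended the week 70 order at 1.26 ± 0.485 CPM per kb.

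**Figure D1:**
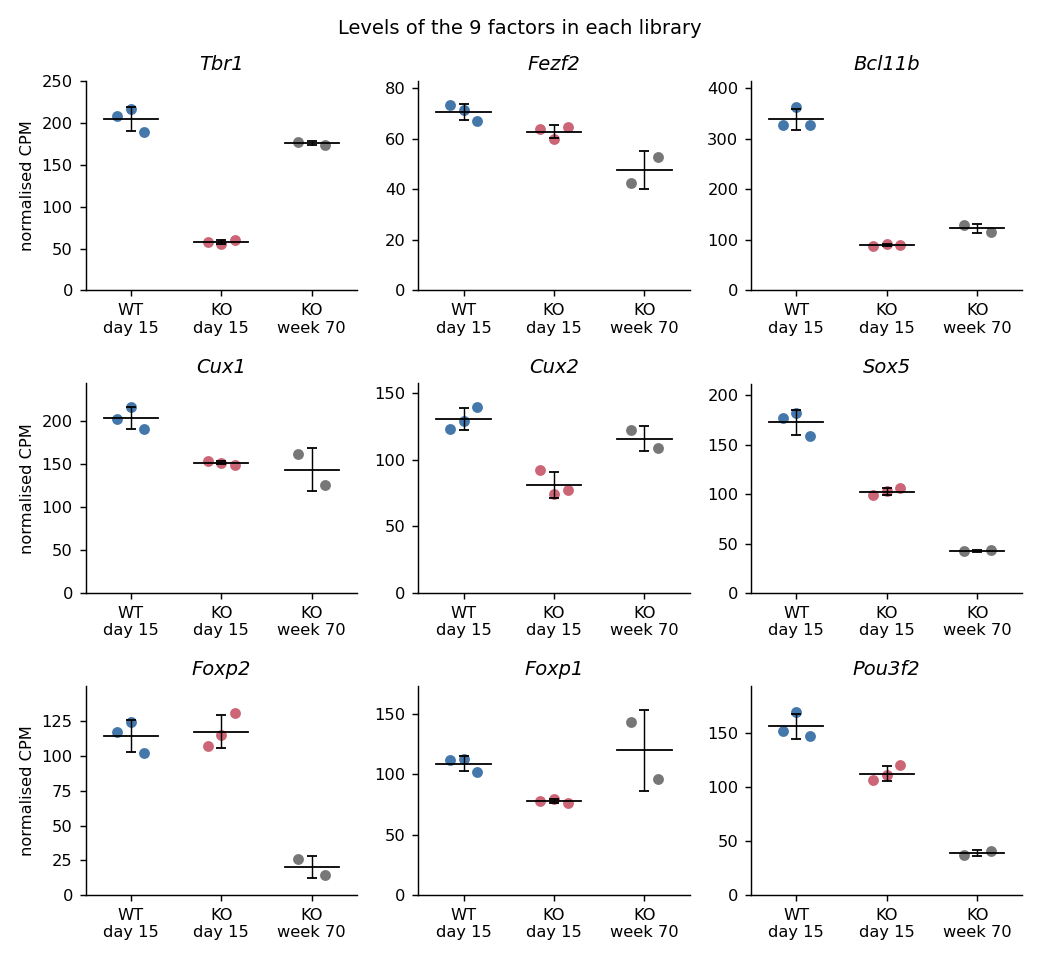
Normalised CPM of each factor (y axes, from 0, scaled per panel) in every library, by group (x axis: 3 WT day 15, 3 KO day 15 and 2 KO week 70 libraries), with points for libraries and bars for the mean ± SD. Tbr1 and Bcl11b dropped in all 3 day 15 KO libraries to 55.6 to 60.4 and 88.0 to 92.1 CPM, and Tbr1 stood at 178 and 174 CPM at week 70.

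At day 15 the deep-layer pair Tbr1 and Bcl11b was far lower in the KO brain, to 28.1% and 26.6% of the WT mean, while Fezf2 stood at 89.2% and Foxp2 at 102.7% of it. The other 5 factors stood at 59.4% to 74.4%. In the edgeR fit over 19147 genes, 7 of the 9 factors fell, none rose, and Fezf2 and Foxp2 did not pass the threshold of an adjusted p of 0.05. Over all genes tested 62.6% passed, 32.5% by a fall and 30.1% by a rise, so a single fall was common in this comparison. The median log2 fold change was -0.44 over the 9 factors and 0.03 over all genes tested. The libraries of the 2 genotypes did not overlap for 8 of the 9 factors, all lower in KO, against 36.2% of all genes that were lower without overlap. Falls of at least 1 on the log2 scale came to 10.8% of all genes and were found for 2 of the 9 factors. In whole-tissue RNA, fewer cells of a type and less RNA per cell cannot be told apart.

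Tbr1 encodes a T-box factor of corticothalamic and other early-born neurons, and restrains the subcerebral programme. Its normalised CPM was 209, 218 and 190 in WT and 57.4, 55.6 and 60.4 in KO at day 15. Every KO library lay at less than the lowest WT value, with a wide gap between the groups. The log2 fold change was -1.79 ± 0.0697 (SE; edgeR adjusted p = 2.19e-08), which put Tbr1 at percentile 2.32 of all genes tested.

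Bcl11b, a zinc-finger factor needed for subcerebral axons and for striatal neurons, stood at 327, 363 and 327 CPM in WT and 88.0, 92.1 and 90.1 CPM in KO. The KO libraries were tightly grouped far beneath the WT libraries. Its log2 fold change was -1.87 ± 0.0685 (edgeR adjusted p = 1.99e-08), at percentile 1.91 of all genes. The ratio of Tbr1 to Bcl11b CPM was 0.638, 0.599 and 0.580 in WT and 0.652, 0.604 and 0.670 in KO, with the groups overlapping. Ratios of Cux1 and of Cux2 to Foxp1 and to Pou3f2 overlapped too. So did Cux1 to Cux2, Cux2 to Sox5, Fezf2 to Foxp2 and Foxp1 to Pou3f2. The remaining pairs of factors had ratios that did not overlap between genotypes. All ratios here and below use CPM not corrected for transcript length or GC content. How often ratios of other gene pairs failed to overlap was not computed, so these ratios are a description only.

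Fezf2, a zinc-finger factor that directs neurons to the subcerebral fate, held 73.1, 71.2 and 66.9 CPM in WT and 64.0, 59.9 and 64.5 CPM in KO. All KO libraries were under all WT libraries, yet the difference of -0.13 ± 0.0595 on the log2 scale missed the threshold (edgeR adjusted p = 0.0888). The ratio of Tbr1 to Fezf2 CPM was 2.85, 3.06 and 2.84 in WT and 0.897, 0.929 and 0.936 in KO. The ratio of Fezf2 to Bcl11b was 0.224, 0.196 and 0.205 in WT and 0.727, 0.651 and 0.715 in KO. Neither ratio overlapped between genotypes.

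Sox5, an HMG-box factor that times the production of deep-layer classes, had 177, 183 and 158 CPM in WT and 99.0, 103 and 106 CPM in KO, without overlap. It fell by 0.71 on the log2 scale, with an SE of 0.0685 and an edgeR adjusted p of 6.80e-06. Foxp2, a forkhead factor of the deepest layer that is also strong in striatum, thalamus and cerebellar Purkinje cells, had 117, 124 and 102 CPM in WT and 107, 115 and 130 CPM in KO. Its groups overlapped, and the difference was 0.08 ± 0.092 (edgeR adjusted p = 0.478). Foxp2 shares chromosome 6 with the deleted gene, and lies 1.86 Mb from it. Foxp1, the related forkhead factor of middle layers and striatum, had 112, 113 and 101 CPM in WT and 77.8, 79.9 and 76.4 CPM in KO, a change of -0.44 ± 0.0593 (edgeR adjusted p = 9.17e-05). The ratio of Foxp2 to Foxp1 CPM was 1.05, 1.10 and 1.00 in WT and 1.37, 1.44 and 1.71 in KO, without overlap.

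Among the upper-layer factors, Cux2, a homeodomain protein with cut repeats, had 124, 129 and 140 CPM in WT and 92.3, 74.1 and 77.2 CPM in KO. Its log2 fold change was -0.65 ± 0.084 (edgeR adjusted p = 6.31e-05). Cux1, its paralog with a wider distribution, had 202, 217 and 191 CPM in WT and 153, 152 and 149 CPM in KO, a change of -0.39 ± 0.0632 (edgeR adjusted p = 0.000344). Pou3f2, a POU factor that promotes the production and migration of upper-layer neurons, had 152, 169 and 147 CPM in WT and 107, 111 and 120 CPM in KO, a change of -0.43 ± 0.0747 (edgeR adjusted p = 0.000492). None of the 3 genes overlapped between genotypes. Foxp1 and Pou3f2, 2 genes of different classes, kept a ratio that overlapped between genotypes, at 0.731, 0.665 and 0.689 in WT and 0.730, 0.720 and 0.635 in KO.

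The sum of the 9 factors took 0.146% to 0.161% of all counts in the WT libraries and 0.0988% to 0.103% in the day 15 KO libraries. Within that sum Bcl11b made up 21.9% to 23.0% in WT and 10.3% to 10.9% in KO, and Tbr1 made up 13.3% to 14.0% in WT and 6.61% to 6.90% in KO. The share of Foxp2 differed the other way, with 7.16% to 7.83% in WT and 12.6% to 14.9% in KO. At week 70 the 9 factors took 0.0594% to 0.0663% of all counts, with 20.2% to 22.5% of that in Tbr1 and 1.93% to 2.97% in Foxp2. These shares are of raw counts. In normalised CPM the 9 factors summed to 1424 to 1587 in WT, 842 to 875 in KO at day 15, and 882 and 774 at week 70.

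**Figure D2:**
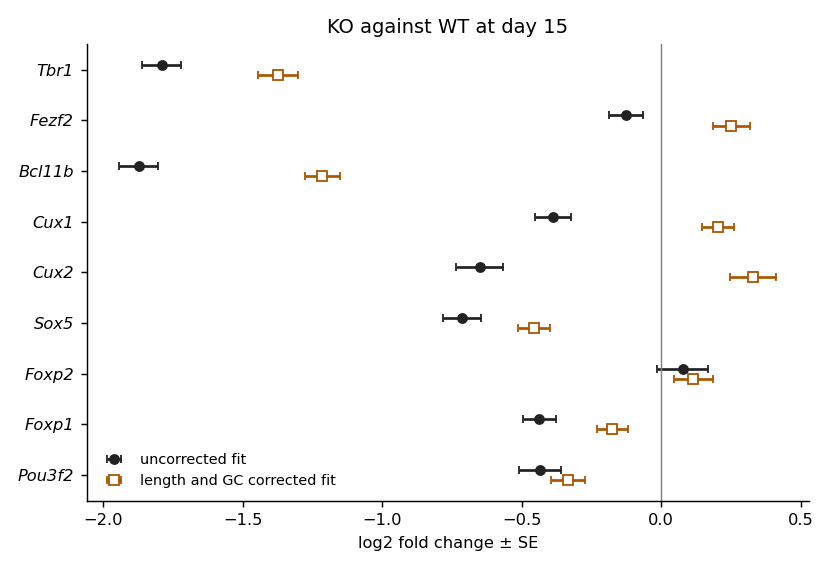
Log2 fold change ± SE (x axis) of KO against WT at day 15 for each factor (y axis), from the uncorrected edgeR fit (filled circles) and from the fit corrected for transcript length and GC content (open squares), 3 libraries a group. Tbr1 and Bcl11b stay at -1.37 and -1.21 with the correction, while Cux1, Cux2 and Fezf2 lie above 0 there.

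The day 15 difference followed the base composition of transcripts across the whole table. Across 19050 genes the log2 fold change had a rank correlation of -0.477 with transcript GC content and -0.367 with length, given as a description because genes are not independent replicates. Protein-coding genes with a GC content of 40% to 45% had a median of 0.26, and those of 55% to 60% had a median of -0.48. In a fit that removed each library's trend on length and GC, the correlations were -0.002 and -0.023, and 51.3% of genes were called, 25.6% lower and 25.8% higher. Tbr1 and Bcl11b kept falls of -1.37 (corrected adjusted p = 3.19e-07) and -1.21 (3.19e-07) in edgeR, at percentiles 2.30 and 3.37. Sox5 at -0.46, Pou3f2 at -0.33 and Foxp1 at -0.17 were also called lower in that fit, with edgeR adjusted p of 8.39e-05, 0.000959 and 0.0218.

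The direction of 3 factors turned with the correction. Cux2, whose transcript is 55.5% GC, went from -0.65 to 0.33 (edgeR adjusted p = 0.00673), Cux1, with the longest transcript of the set at 12862 bases, from -0.39 to 0.21 (0.0122), and Fezf2, at 55.9% GC, from -0.13 to 0.25 (0.00933). Foxp2, at 42.6% GC, was 0.12 and not called (0.193). The count therefore became 5 lower, 3 higher and 1 not called, with a median of -0.17, where 25.6% of all genes were lower and 25.8% higher. The day 15 direction of Cux1, Cux2 and Fezf2 thus depended on whether the length and GC trend was removed.

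**Figure D3:**
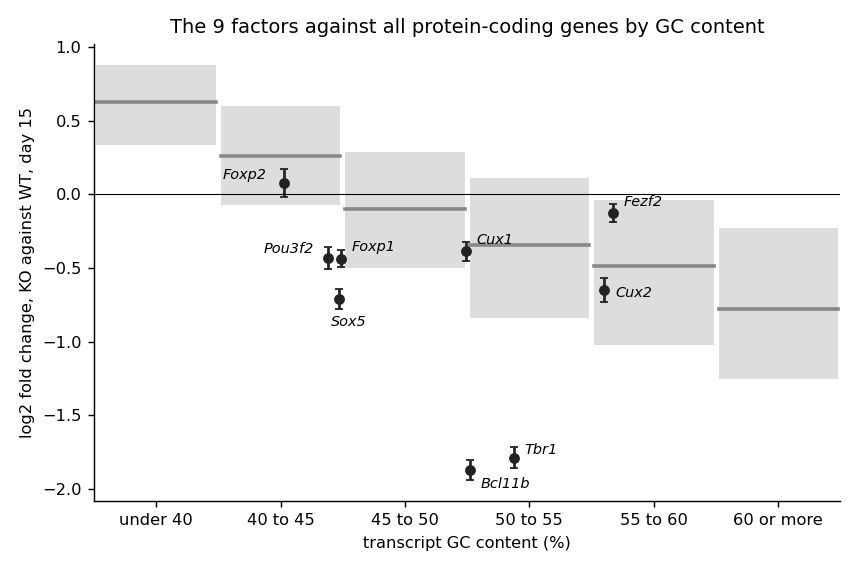
Day 15 log2 fold change of KO against WT (y axis) by transcript GC content in percent (x axis), with the 9 factors as labelled points ± SE and all protein-coding genes as the median and quartiles of each GC bin. Tbr1, at 51.9% GC, and Bcl11b, at 50.1% GC, lie far beneath the median of -0.34 of genes with 50% to 55% GC, and Fezf2, at 55.9%, lies above the median of its bin.

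Paralogs of the 9 factors were lower at day 15 in most cases. Of 11 listed, 10 had enough counts to be tested, and 9 fell, none rose and Foxp3, a forkhead factor of regulatory T cells, was not called at 0.36. The median was -0.97. Pou3f1 and Pou3f3, POU factors close to Pou3f2, fell by 1.82 and 1.46, more than Pou3f2 itself at -0.43, and Pou3f4 fell by 0.73. Eomes, the T-box factor of intermediate progenitors and a relative of Tbr1, fell from 103, 104 and 91.7 CPM to 41.6, 36.9 and 38.3 CPM, a change of -1.31 ± 0.0702 (edgeR adjusted p = 1.10e-07). Bcl11a, the partner of Bcl11b in cortex, changed by -0.60, the SoxD factors Sox6 and Sox13 by -0.79 and -1.29, Foxp4 by -1.16 (corrected -0.17) and Fezf1 by -0.48, a call lost in 5 of the 6 fits without 1 library and with the correction, at -0.31. With the correction 8 paralogs were lower and 1, Foxp3 at 0.92, was higher, and the median was -0.43. Tbx21, the third T-box gene of this group, was too low to test, with at most 6 counts in a library.

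Of 24 other transcription factors of projection neurons, 17 fell, 5 rose and 2 were not called, with a median of -0.64 (corrected -0.35, with 14 lower and 2 higher). Zfpm2 fell by 1.08, Tle4 by 0.87 and Nr4a2 by 0.66, and all 3 were also called lower with the correction, at -0.99, -0.66 and -0.56. Lhx2, a selector of cortical identity, changed by -1.19 (corrected -0.60), Nr2f1, an areal patterning factor, by -0.82 (corrected -0.07, not called), Bhlhe22 by -0.64 (corrected -0.33) and Lmo4 by -0.24 (corrected -0.37). Neurod6, a factor of postmitotic excitatory neurons, rose by 0.69 and was at 0.04 and not called with the correction, and Mef2c rose by 0.16 (corrected 0.0034, not called). Neurod2, a relative of Neurod6, changed by -0.52 and stood at 0.14, not called, with the correction.

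Among 28 genes of layers, axon classes and known targets, 20 fell, 3 rose and 5 were not called, with a median of -0.71 (corrected -0.27, with 17 lower and 1 higher). Reln and Auts2, known targets of Tbr1 with roles in layering and neuronal growth, fell by 1.76 and 1.43 (corrected -1.07 and -0.53). Whether these falls relate to that of Tbr1 was not tested. Reln stood at 341, 345 and 338 CPM in WT and 98.2, 89.7 and 107 CPM in KO, without overlap. Plxnd1, a guidance receptor, changed by -1.88 (corrected -0.69), and Slc17a7, the vesicular glutamate transporter of mature cortical neurons, by -1.02 (corrected -0.49). Ldb2 rose by 0.28 and was not called with the correction, at 0.02. Slc17a6, Crym and Cntnap2 were not called, at 0.15, -0.03 and -0.12. Pcp4, a calmodulin-binding protein used as a deep-layer marker and chosen here after its values were seen, went the other way from most of the list. It stood at 6.82, 7.68 and 7.99 CPM in WT and 20.2, 21.0 and 25.6 CPM in KO, without overlap, a rise of 1.61 ± 0.128 (edgeR adjusted p = 1.70e-06; corrected 0.86).

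The lists of markers of other cells in the fetal brain also had negative medians, with single genes going either way. Over all genes tested the median was 0.03, and 32.5% were called lower and 30.1% higher. Of 12 dorsal progenitor genes 11 fell and 1 rose (median -1.14, corrected -0.97), and their summed level was 1711 to 1805 CPM in WT and 1280 to 1397 CPM in KO. Neurog2, a proneural factor, fell by 1.14, and Pax6 by 0.24 (corrected 0.07, not called). Of 14 genes of the subpallium, the source of interneurons, 9 fell and none rose (median -0.92, corrected -0.56), with sums of 892 to 1027 CPM in WT and 665 to 701 CPM in KO. Gad1, Gad2 and Dlx1 were not called, at -0.14, 0.14 and -0.02. With the correction Gad2 and Dlx1 were called higher, at 0.23 and 0.57 (edgeR adjusted p = 0.0162 and 0.00044), and Gad1 was at -0.08. Without WT replicate 1 Gad1 was called lower, at -0.19.

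Striatal genes matter here because Bcl11b, Foxp1 and Foxp2 are also striatal factors. Of 16 such genes 8 fell, 3 rose and 5 were not called (median -0.44, corrected -0.16), and they summed to 697 to 752 CPM in WT and 525 to 542 CPM in KO. Ppp1r1b fell by 0.78 (corrected -0.24, not called), Meis2 by 0.27, Drd1 was called at 0.53 but not with the correction, at 0.49, or without KO replicate 1, at 0.35, and Isl1 was not called at 0.10. Of 15 markers of Purkinje cells, thalamus, midbrain and hindbrain, 7 fell and 4 rose (median -1.00, corrected -0.73), with sums of 659 to 720 CPM in WT and 412 to 440 CPM in KO.

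Of 10 genes of all neurons 5 fell and 2 rose (median -0.24, corrected -0.11), with sums of 6327 to 6987 CPM in WT and 5179 to 5220 CPM in KO. Tubb3 fell by 1.20 (corrected -0.86) and Rbfox3 by 0.73 (corrected -0.09, not called), Snap25 rose by 0.47 (corrected 0.03, not called), and Dcx was not called at -0.14 but was called lower with the correction, at -0.22. Of 11 glial genes tested 6 fell and 2 rose (median -0.73, corrected -0.26), with sums of 165 to 192 CPM in WT and 91.8 to 101 CPM in KO. Of 15 non-neural genes 8 fell and 1 rose (median -1.37, corrected -1.17). Their sums were 4950, 739 and 922 CPM in WT replicates 1, 2 and 3 and 759 to 980 CPM in KO. Only WT replicate 1 had a sum above the KO range. The part of these other cells in the values of the 9 factors was not tested. Without WT replicate 1, the library with the highest non-neural sum, the log2 fold change was -1.80 for Tbr1 and -1.92 for Bcl11b.

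**Figure D4:**
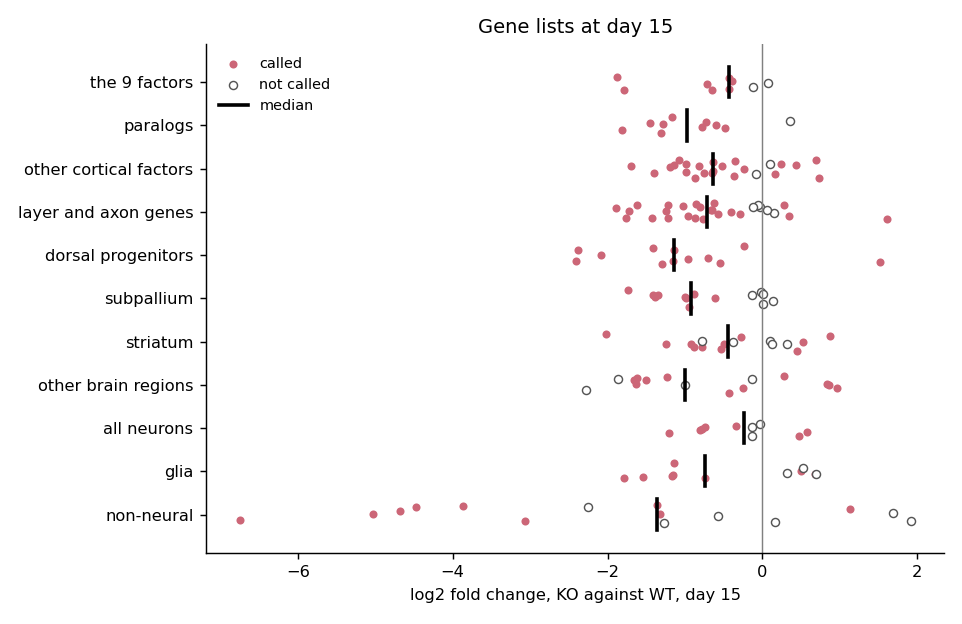
Day 15 log2 fold change of KO against WT (x axis) of every tested gene in each list (y axis), with filled points for genes called by edgeR, open points for genes not called, and a bar at the list's median. The 9 factors have a median of -0.44, and the lists of paralogs, progenitors and subpallial genes lie lower, at -0.97, -1.14 and -0.92.

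Between day 15 and week 70 in the KO brain, the factors parted. Tbr1 rose to 176 CPM, while Foxp2, Pou3f2 and Sox5 fell to between 20.6 and 42.8 CPM. In the edgeR fit over 20000 genes 4 of the 9 factors rose, 4 fell and Cux1 was not called, where 82% of all genes were called, 37.6% higher and 44.4% lower. The median was -0.18 over the factors and -0.19 over all genes. The groups did not overlap for 8 of 9 factors, against 87.9% of all genes. These shares show that a difference between the 2 groups was the usual outcome. Week 70 replicate 2 also differed from the day 15 KO libraries in sex transcripts, and no batch is labelled. Age cannot be told apart from such differences. The comparison shares the day 15 KO libraries with the genotype comparison, so values of the 2 are given side by side and were not correlated.

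Tbr1 stood at 178 and 174 CPM at week 70, against 57.4, 55.6 and 60.4 CPM in the KO at day 15. It changed by 1.51 ± 0.0828 (edgeR adjusted p = 3.87e-08; corrected 0.74, adjusted p = 1.73e-05). Bcl11b, at 129 and 116 CPM, changed by 0.35 ± 0.0862 (edgeR adjusted p = 0.00354), but the corrected value was -0.22 (edgeR adjusted p = 0.0342). With the replicate number as a block in the corrected fit it was -0.21 and not called (edgeR adjusted p = 0.0842). Tbr1 CPM was 1.37 and 1.50 times that of Bcl11b at week 70, above the ratio in every fetal library. Fezf2, at 42.4 and 52.9 CPM, fell by 0.50, with an SE of 0.109 and an edgeR adjusted p of 0.00156 (corrected -1.34).

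Foxp2 had 26.2 and 15.0 CPM at week 70, far under the fetal libraries, and changed by -2.61 ± 0.199 (edgeR adjusted p = 5.44e-07; corrected -2.44). Pou3f2, at 37.0 and 41.3 CPM, changed by -1.62 ± 0.101 (edgeR adjusted p = 1.04e-07; corrected -1.70), and Sox5, at 42.1 and 43.4 CPM, by -1.36 ± 0.0886 (edgeR adjusted p = 1.46e-07; corrected -1.43). These 3 genes hardly moved with the correction.

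Cux2 had 123 and 109 CPM at week 70 and changed by 0.42 ± 0.108 (edgeR adjusted p = 0.00449), which turned to -0.55 with the correction (adjusted p = 0.000973). Cux1, at 161 and 126 CPM, overlapped the day 15 KO libraries and was not called at -0.18 ± 0.107 (edgeR adjusted p = 0.147), but was called at -0.34 with the correction (0.0184). Week 70 replicate 1 held the higher Cux1 level, and without it the change was -0.36 and called (edgeR adjusted p = 0.00592), while without replicate 2 it was -0.0068 and not called. Foxp1 had 143 and 96.2 CPM, far apart between the week 70 libraries, and changed by 0.52 ± 0.14 (edgeR adjusted p = 0.0057). Without week 70 replicate 1, the library with the higher striatal sum, the Foxp1 change was 0.21 and no longer called (edgeR adjusted p = 0.0602). With the correction 2 factors, Tbr1 and Foxp1 at 0.45, rose and 7 fell, and the median was -0.55 beside -0.34 for all genes. Of all genes 79.8% were called in that fit, 33.5% higher and 46.3% lower.

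The surroundings of the factors changed strongly between these ages. All 12 glial genes rose, with a median of 4.94, and their sum went from 91.8 to 101 CPM at day 15 to 13944 to 14158 CPM at week 70. Slc17a7 rose by 6.57, Crym by 2.96 and Mef2c by 2.35, and the immature-neuron gene Dcx fell by 6.44. Snap25 rose by 4.51 and Rbfox3 by 2.64 (corrected 1.45), and Tubb3 fell by 0.67 (corrected -1.51). The part of these marker changes in the levels of the factors was not tested.

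Of 10 tested paralogs 3 rose, 6 fell and Foxp4 was not called at -0.36 (median -0.96, corrected -1.59). Foxp4 was called lower with the correction, at -2.06. Eomes fell by 4.18 to 1.91 and 2.69 CPM, the opposite direction to its relative Tbr1. Pou3f1 rose by 2.38 (corrected 0.67) and Pou3f3 by 0.63 (corrected -0.09, not called), while Pou3f4 fell by 1.32 and Pou3f2 by 1.62. Bcl11a fell by 1.12 and Sox6 by 0.79, Sox13 rose by 0.57 but was at -0.88 and called lower with the correction, and Foxp3 was called lower at 43, 35 and 29 counts at day 15 and 0 and 4 counts at week 70. Fezf1, also called lower, held 83, 89 and 77 counts in the day 15 KO libraries and 0 in both week 70 libraries.

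Of the 24 other factors 11 rose and 10 fell (median 0.08, corrected -0.03), and of the 28 genes of layers and targets 13 rose and 9 fell (median 0.25, corrected -0.07). Tle4 rose by 0.40 (corrected 0.01, not called), Nr4a2 by 1.19 and Lmo4 by 1.79. Lhx2 rose by 0.43 and was called lower at -0.71 with the correction. Neurod6 fell by 2.13, Neurod2 by 0.81 and Nr2f1 by 0.57, and with the correction these were at -1.51, -2.01 and -1.91. Bhlhe22 was not called at 0.04 but was called lower with the correction, at -0.63 (edgeR adjusted p = 0.000122). Zfpm2 was not called at 0.07, with week 70 libraries that lay apart: it was called higher without replicate 1, at 0.46, and called lower without replicate 2, at -0.42. The Tbr1 targets Reln and Auts2 fell by 1.50 and 0.84 (corrected -1.87 and -1.83), while Tbr1 itself rose by 1.51 (corrected 0.74). Slc17a6 fell by 1.20. Plxnd1 rose by 2.16 (corrected 0.65) and Ldb2 by 0.64, and Cntnap2 was at 0.22, not called, and called higher at 0.39 with the correction.

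Of the 12 progenitor genes 8 fell and 3 rose (median -1.34), with Pax6 at -1.99 and Neurog2 at -5.46. Of the 14 subpallial genes 11 fell and 2 rose (median -1.21), with Dlx1 at -3.49, Gad1 at 1.80 and Gad2 at 0.41, which was not called without KO replicate 1 or without week 70 replicate 2, at 0.34 and 0.13. Of the 16 striatal genes 7 rose and 4 fell (median 0.57): Ppp1r1b rose by 4.81 and Drd1 by 2.12, and Isl1 fell by 4.83 and Meis2 by 0.74. The week 70 libraries lay apart, with Ppp1r1b at 387 and 109 CPM and Drd1 at 42.0 and 9.16 CPM in replicates 1 and 2. The 16 genes summed to 1662 and 460 CPM in these libraries, against 525 to 542 CPM in the day 15 KO libraries. Of the 15 markers of other regions 10 fell and 4 rose (median -2.42), of the 10 genes of all neurons 5 rose and 5 fell (median -0.14), and of the 15 non-neural genes 8 rose and 5 fell (median 0.73).

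**Figure D5:**
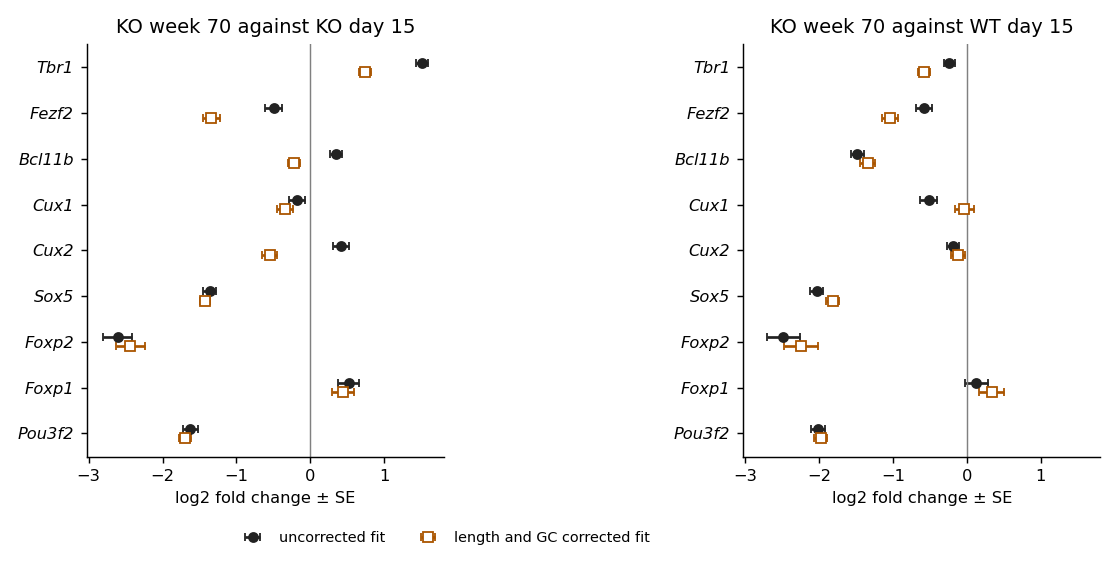
Log2 fold change ± SE (x axes) of KO week 70 against KO day 15 (left) and against WT day 15 (right) for each factor (y axis), from the uncorrected edgeR fit (filled circles) and the fit corrected for transcript length and GC content (open squares), 2 libraries at week 70 and 3 in each day 15 group. Foxp2, Sox5 and Pou3f2 lie under -1.3 in both panels, whereas Tbr1 is at 1.51 on the left and -0.24 on the right.

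Set against the WT fetal brain, where age and genotype differ together and cannot be told apart, the week 70 KO brain had 7 factors lower, none higher and Cux2 and Foxp1 not called. Over the 19465 genes tested 78.6% were called, 41.9% lower and 36.7% higher. The median was -0.58 over the factors and -0.16 over all genes. Tbr1 reached 85.7% of the WT fetal mean and differed by -0.24 ± 0.0782 (edgeR adjusted p = 0.0255), a call lost when WT replicate 1, WT replicate 2 or week 70 replicate 2 was left out, at -0.23, -0.17 and -0.22. The corrected Tbr1 value was -0.57 and was called lower (edgeR adjusted p = 0.000388). Bcl11b stood at 36.2% and changed by -1.48 ± 0.0891 (edgeR adjusted p = 3.97e-06). Its week 70 libraries lay above every day 15 KO library and far under every WT library.

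Foxp2, Sox5 and Pou3f2 stood at 18.0%, 24.7% and 25.1% of the WT fetal mean, with changes of -2.48 ± 0.224, -2.03 ± 0.0866 and -2.01 ± 0.0933. Their edgeR adjusted p were 3.46e-05, 7.63e-07 and 1.11e-06. Fezf2 changed by -0.58 ± 0.105 (edgeR adjusted p = 0.00158), and by -1.04 with the correction (edgeR adjusted p = 7.33e-05). Cux1 changed by -0.52 ± 0.117 (edgeR adjusted p = 0.00479), but was at -0.03 and not called with the correction (0.824). Cux2 was not called at -0.19 ± 0.0848 (edgeR adjusted p = 0.0763), but was called lower without week 70 replicate 1, at -0.27 (edgeR adjusted p = 0.0283). Foxp1 overlapped the WT libraries at 0.13 ± 0.158 (0.468), and stood at -0.19 without week 70 replicate 1 and at 0.39, called, without replicate 2. With the correction 6 factors were lower and none higher, where 78% of all genes were called, 43.4% lower and 34.6% higher. Of the 10 tested paralogs 9 were lower and 1 higher, of the 24 other factors 13 were lower and 7 higher, and of the 28 genes of layers and targets 13 were lower and 7 higher.

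The genes whose levels ran closest to each factor over the 8 libraries are given as a description, since 3 group means dominate such a correlation. Among 13063 genes, the highest Pearson r of log2 CPM was 0.9996 for Sox5 with Cecr2, 0.9993 for Pou3f2 with Nfib, 0.9989 for Tbr1 with Jmy, 0.9985 for Bcl11b with Stox2 and 0.998 for Foxp2 with Bub1. It was 0.9924 for Fezf2 with Mre11a, 0.9894 for Cux2 with Mars1, 0.9834 for Foxp1 with Dusp1 and 0.9795 for Cux1 with Taf6. Among the factors themselves, Sox5 and Pou3f2 had the highest r of the 36 pairs, at 0.984.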

How the data were processed

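Raw read counts per gene were deposited by the authors as 1 table of 8 libraries, per the file headers. The submitters' processing notes name FastQC, cutadapt, Trimmomatic, HISAT2, featureCounts and edgeR, and the builds GRCm38 and GRCm39, with no roles. The strand setting and the treatment of multi-mapping reads are not given in the sources used here, so overlapping genes are uncertain; genes that overlap a factor held at most 39 counts in a library.

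Samples were grouped by their titles. Genes were kept by filterByExpr, scaled by TMM and tested with the two-sided quasi-likelihood F-test of edgeR 4.0.16 in R 4.3.3, with Benjamini-Hochberg adjustment over all genes tested and a threshold of 0.05. Only the 2 groups compared entered each fit. The SE is the one implied by the F statistic. "Called" means past this threshold. Levels are CPM scaled by TMM over all 8 libraries, and 1 count corresponds to 0.0467 to 0.0689 CPM. The correction entered each library's smooth trend on transcript length and GC content (mgcv 1.9.3; GENCODE on GRCm38, 97.3% of genes matched) as an offset. Scripts were tested on simulated data.

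The genes named were fixed by name: all 9 factors, all their paralogs and a short choice from each list, plus for each factor the gene with the highest correlation; 1 gene of that choice is not reported here. The members and lists were chosen with earlier results of these data known. Promoter sequences came from RefSeq, and genes were positioned by GENCODE. P-values measure the spread between these samples, which may in part be technical. Alternatives were scaling by RLE or by the upper quartile, testing without a filter, a mean of at least 10 counts, DESeq2 1.42.0, all 8 libraries in 1 fit, the replicate number as a block, the length and GC offset without and with that block, and each library left out in turn.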

Additional observations from a re-analysis of the deposited data

How the results depend on the processing

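At day 15, 122 of 135 member results under alternatives kept their direction and side of the threshold, as did 114 of 126 for age in the KO and 117 of 126 for week 70 against WT. Tbr1, Bcl11b, Sox5, Foxp1 and Pou3f2 were lower and called at day 15 under all 15 alternatives. The count of genes called ranged from 8851 to 12542 against 11993 at day 15 and no count moved by over 1.5 times.

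With the length and GC offset, alone and with the replicate block, the day 15 log2 fold changes were 0.25 and 0.25 for Fezf2, 0.21 and 0.21 for Cux1, 0.33 and 0.33 for Cux2, 0.14 and 0.14 for Neurod2, -0.068 and -0.066 for Slc17a6, 0.14 and 0.14 for Cntnap2, 0.074 and 0.076 for Pax6, 0.57 and 0.58 for Dlx1 and -0.14 and -0.14 for Isl1. For age in the KO they were -0.22 and -0.21 for Bcl11b (the latter not called), -0.34 and -0.36 for Cux1, -0.55 and -0.55 for Cux2, -0.88 and -0.87 for Sox13, -0.086 and -0.14 for Pou3f3, -0.71 and -0.64 for Lhx2 and -0.63 and -0.61 for Bhlhe22. For week 70 against WT they were -0.033 and -0.095 for Cux1 and -0.053 and -0.082 for Pou3f1. The offset removes the trend by construction, and whether the trend is technical or biological was not tested.

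Upper-quartile scaling moved the median of all genes from 0.03 to 0.20 at day 15, from -0.19 to -0.44 for age and from -0.16 to -0.29 for week 70 against WT, and the share of calls that were higher at day 15 from 48.1% to 60.8%. Under that scaling the day 15 values were 0.047 for Fezf2, 0.25 for Foxp2 (called), 0.14 for Crym, 0.048 for Cntnap2, 0.037 for Gad1, 0.16 for Dlx1 and 0.035 for Dcx. The age values were 0.097 for Bcl11b, 0.17 for Cux2 and 0.27 for Foxp1 (all no longer called), -0.43 for Cux1 (called), -0.18 for Zfpm2, -0.21 for Bhlhe22 and -0.028 for Cntnap2. Against WT, Cux2 was called at -0.32. With no filter, Fezf2 was called at -0.22 and Foxp2 was -0.013 at day 15; the cause was not tested.

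With 1 library left out, the day 15 change ranged from -0.17 to -0.10 for Fezf2 (called without WT replicate 3) and from -0.0079 to 0.14 for Foxp2, which lay below 0 without WT or KO replicate 3. It ranged from -0.13 to 0.034 for Crym and from -0.12 to 0.076 for Dlx1. For age the range was -0.36 to -0.0068 for Cux1 (called without week 70 replicate 1), 0.21 to 0.78 for Foxp1, -0.42 to 0.46 for Zfpm2 and -0.076 to 0.17 for Bhlhe22. Against WT it was -0.27 to -0.11 for Cux2 (called without week 70 replicate 1), -0.27 to -0.17 for Tbr1 and -0.19 to 0.39 for Foxp1 and -0.018 to 0.29 for Cntnap2. A lone week 70 library was assumed to vary like the day 15 libraries.

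Whether the replicate numbers pair the samples was not settled. Same-numbered day 15 deviations correlated at -0.158, -0.187 and -0.168, and those with different numbers at 0.066 to 0.10. Centring within each small group ties these correlations to one another, so they cannot decide it. With the replicate block 11184 genes were called at day 15, 14876 for age and 13244 for week 70 against WT, and 7, 8 and 7 factors, as without it. Depth and marker differences between the groups, and the absence of WT brain at week 70 from the comparison, limit what these values can separate.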
